A study of Mus musculus with 6 samples.

Results

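The Zfp zinc finger genes of the mouse were described in RAW264.7 cells (macrophage-like cells from a mouse tumour induced by Abelson murine leukaemia virus). A gene was taken as a member if it was protein-coding, its symbol was Zfp followed by digits, with optional final letters, and its counts summed over the 6 libraries reached 60. Of the 24379 genes in the deposited table, 348 protein-coding genes had such a symbol, 304 were members and 44 fell under the limit. Of the members nearest that limit, Zfp973 had 69 summed counts and Zfp300 had 71, while Zfp882 with 51 and Zfp433 with 49 lay just under it. All 304 members also passed the filter on low counts that preceded the test, so none was set aside.

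The study had sequenced RNA from RAW264.7 cells with and without high-fructose corn syrup (HFCS), and its title concerns proinflammatory activation of macrophages. The HFCS group held 3 libraries of cells treated for 18 h, with the dose given as 140 mM in the titles and as 170 mM in the source names. The control group, labelled WT, held 3 libraries with the same 18 h label, and the labels do not say what these cells received. The growth protocol names the HFCS treatment for every sample, both groups are the same cell line, and nothing says that replicates came from separate cultures, so a p-value here sets a difference against the spread of these libraries alone, and that spread may be technical.

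Zinc finger proteins of the C2H2 kind fold short stretches of sequence around a zinc ion held by cysteines and histidines, and arrays of such fingers read DNA. Many mouse members also carry a KRAB domain, which binds Trim28 (KAP1), a scaffold that brings the histone methyltransferase Setdb1, HP1 proteins and histone deacetylases to the bound site, often a retroelement. KRAB zinc finger genes lie in tandem clusters that grew by duplication. Other members share the name but not the task: Zfp36 (tristetraprolin) binds AU-rich elements of cytokine mRNAs and recruits the deadenylase complex, and in macrophages it is known for limiting Tnf mRNA.

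Total counts were 13108485 to 15340255 in the HFCS libraries and 14101303 to 14840315 in the WT libraries. Of 10 macrophage markers, 10 were tested, 8 were higher in HFCS libraries and 2 were lower, with summed levels (in CPM, a gene's reads scaled by library size) of 2655 to 2669 CPM in HFCS and 2264 to 2297 CPM in WT libraries. Of 15 markers of T cells, B cells, epithelium, fibroblasts and endothelium, 10 were in the table. Their summed level was 2.30 to 3.34 CPM in HFCS and 4.31 to 6.61 CPM in WT libraries. Only 3 had enough counts to be tested. The endothelial Pecam1 and Cdh5 were lower (log2 fold change -1.86 and -1.37, edgeR adjusted p = 0.00115 and 0.0118), and Col1a1 did not pass. Akr1b3 (aldose reductase), a gene known to rise in hypertonic medium, averaged 208 ± 12 CPM in HFCS libraries and 7435 ± 381 CPM in WT libraries (SD, n = 3 each). The part of these markers in the results was not tested. Whether any library was mislabelled was not tested, and the direction of every difference rests on the labels. In bulk RNA, fewer cells of a type and less RNA per cell cannot be told apart.

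The 250 bases before the transcription start, from RefSeq on GRCm38.p6, are shown for 6 members to which the results return: the member with the largest rise, a riser from the chromosome 17 array, the pair with the largest rises in the chromosome 7 group of risers, the most abundant member per kb of exon, and the member with the largest fall. Capitals mark matches to the motifs counted here on either strand, which for these 6 are CCAAT, the ETS core CCGGAAGT and the Sp1 box GGGGCGGGG. The windows lie at chr8:69654306-69654555 (plus strand) for Zfp964, chr17:22867135-22867384 (minus) for Zfp945, chr7:127345315-127345564 (minus) for Zfp768, chr7:127376051-127376300 (minus) for Zfp747, chr13:55105072-55105321 (plus) for Zfp346 and chr17:21845760-21846009 (minus) for Zfp820, each written 5′ to 3′ along its gene.
Zfp964: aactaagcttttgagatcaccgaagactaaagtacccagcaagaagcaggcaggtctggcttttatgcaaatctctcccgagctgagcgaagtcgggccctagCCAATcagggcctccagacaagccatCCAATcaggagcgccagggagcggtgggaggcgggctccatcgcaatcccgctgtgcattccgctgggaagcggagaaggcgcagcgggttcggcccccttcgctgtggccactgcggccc
Zfp945: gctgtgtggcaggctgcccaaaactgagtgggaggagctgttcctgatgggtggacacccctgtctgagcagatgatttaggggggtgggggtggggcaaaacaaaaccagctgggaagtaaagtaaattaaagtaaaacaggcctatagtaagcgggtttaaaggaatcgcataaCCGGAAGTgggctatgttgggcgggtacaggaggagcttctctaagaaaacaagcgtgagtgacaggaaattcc
Zfp768: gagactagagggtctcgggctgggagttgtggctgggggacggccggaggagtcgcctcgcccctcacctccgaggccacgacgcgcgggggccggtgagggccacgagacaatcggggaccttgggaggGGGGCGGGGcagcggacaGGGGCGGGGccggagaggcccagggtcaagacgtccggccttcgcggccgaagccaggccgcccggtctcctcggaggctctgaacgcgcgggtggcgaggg
Zfp747: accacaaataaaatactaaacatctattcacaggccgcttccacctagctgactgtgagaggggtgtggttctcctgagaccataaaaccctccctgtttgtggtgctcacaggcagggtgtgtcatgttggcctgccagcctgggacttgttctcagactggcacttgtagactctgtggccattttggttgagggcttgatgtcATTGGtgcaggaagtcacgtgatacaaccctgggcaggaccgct
Zfp346: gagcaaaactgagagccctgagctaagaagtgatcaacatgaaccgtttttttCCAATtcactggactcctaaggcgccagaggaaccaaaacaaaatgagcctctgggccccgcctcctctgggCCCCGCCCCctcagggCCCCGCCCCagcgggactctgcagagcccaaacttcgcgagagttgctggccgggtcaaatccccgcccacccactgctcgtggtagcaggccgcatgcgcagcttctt
Zfp820: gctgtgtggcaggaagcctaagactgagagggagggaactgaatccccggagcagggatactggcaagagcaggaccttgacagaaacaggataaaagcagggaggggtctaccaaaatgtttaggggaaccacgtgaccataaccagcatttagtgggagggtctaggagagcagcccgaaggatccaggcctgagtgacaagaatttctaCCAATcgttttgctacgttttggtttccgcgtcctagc
Zfp964 held CCAAT at 147 and 121 bases before its start, Zfp346 at 197 and Zfp820 at 38, and Zfp747 held it on the opposite strand at 44. Sp1 boxes lay at 120 and 102 bases before the start of Zfp768 and, on the opposite strand, at 125 and 109 before that of Zfp346. Zfp945 held the ETS core at 74 bases before its start.

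Of all 304 members, 260 had windows in the RefSeq table, from 250 bases before to 50 after a start. Their 313 windows were set beside the 32851 windows of all 27025 genes there. Members had passed a limit on counts, but no such limit was set for the other genes. Windows of the genes tested here were not counted apart. Matches were counted on both strands, and no motif's letters contain another's. The ETS core stood in 11.8% of the members' windows and in 3.89% of all windows, and CCAAT in 48.2% and 37.4%. The CRE letters TGACGTCA stood in 4.79% of the members' windows and 1.79% of all. The Sp1 box (11.5% and 11.4%) and the NF-kB consensus (8.63% and 8.46%) were about as frequent as in all windows, and the AP-1 letters TGANTCA were in 3.51% against 7.81%. The members' windows held a median of 15 CpG dinucleotides, against 7 in all windows. Among the 97 windows of 81 members that rose, 42 (43.3%) held CCAAT, against 16 of 21 (76.2%) for members that fell and 93 of 195 (47.7%) for those that did not pass the test. Those 21 windows belong to 19 genes. For members that rose and fell, the shares were 14.4% and 4.76% for the ETS core and 3.09% and 0% for CRE. They were 11.3% and 23.8% for Sp1, 10.3% and 9.52% for NF-kB, and 4.12% and 9.52% for AP-1. These matches describe letters in a window and were not tested.

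Many more Zfp genes were higher than lower in HFCS libraries. At an adjusted p under 0.05 in edgeR's quasi-likelihood test (Benjamini-Hochberg over all genes tested), 102 of the 304 members (33.6%) were higher, against 22.4% of the 14360 genes tested, and 24 (7.89%) were lower, against 22.5% of all genes tested. In either direction 126 members (41.4%) passed, against 44.9% of all genes tested, and the other 178 did not. The median log2 fold change was 0.19 over the members and -0.0045 over all genes tested, and 210 members (69.1%) lay above 0, against 49.6% of all. Every HFCS library lay above every WT library in 122 members (40.1%), against 27.4% of all genes, and below in 28 (9.21%), against 27.2%. With library sizes left without the correction for composition, 119 members were higher and 20 lower, among 3975 higher and 2624 lower of all genes.

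**Figure D1:**
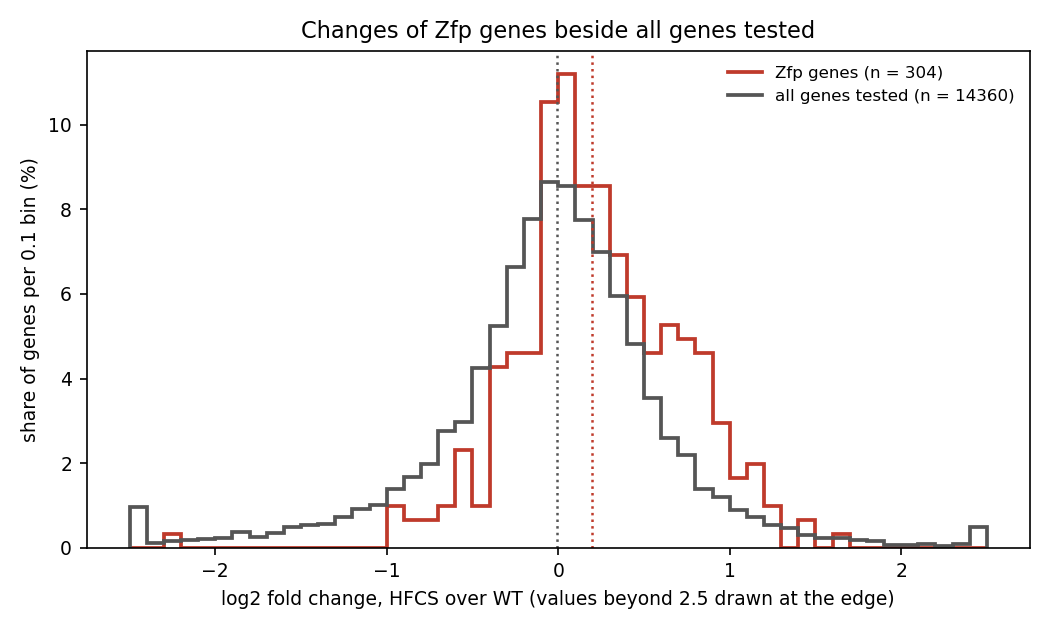
Distribution of log2 fold change (HFCS over WT, horizontal axis) among the 304 Zfp members and among all 14360 genes tested, each as a percentage of its own set (vertical axis). Dotted lines mark the medians, 0.19 for the members and -0.0045 for all genes, and the members' excess lies right of 0.

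Most changes were small. Of the 304 members, 17 passed with a rise of at least 2-fold and 1 with such a fall, and 94.1% changed by less than 2-fold either way. Of the 14360 genes tested, 609 (4.24%) passed with a rise of at least 2-fold and 919 (6.4%) with such a fall. Among members past the threshold, the median size of the log2 fold change was 0.67, against 0.58 among all genes past it. The members' raw counts, without the correction for composition, made up 0.948 ± 0.0214% of all counts in HFCS libraries and 0.829 ± 0.0344% in WT libraries (SD, n = 3 each). With that correction, they summed to 9238 ± 185 CPM in HFCS libraries and 8540 ± 355 CPM in WT libraries. The median member had 15.6, 16.3 and 16.6 CPM in the HFCS libraries, against 12.7, 13.4 and 14.3 CPM in the WT libraries, and the groups did not overlap.

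The share of members that rose is given here by level and by base composition. Between 50 and 200 mean counts, 37.4% of members were higher and 2.8% lower, against 21.7% and 21.2% of all genes at that level. Between 200 and 500 counts, 35.2% of members were higher and 7.69% lower, against 30.1% and 16.9% of all genes. At 500 counts or more, 32.4% were higher and 16.9% lower, against 26.2% and 26.5% of all genes. By GC content of the longest transcript, 22 of 121 members under 42% GC were higher and 12 lower, while 43 of 81 members at 50% GC or more were higher (53.1%) and 5 lower. All genes at 50% GC or more were higher in 26.1% and lower in 20.6%, and all genes under 42% GC were higher in 13.9% and lower in 26.3%. The median GC content was 48.6% for members that rose, 43.3% for those that fell and 42.3% for those that did not pass. The part of GC content in these differences was not tested beyond removing each library's GC trend, after which 126 members were higher and 13 lower, among 3774 higher and 2596 lower of all genes.

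Zfp964 had the highest fold change by the rule for named genes, followed by Zfp14, Zfp213, Zfp983, Zfp963, Zfp503, Zfp945 and Zfp568. The rule took the 8 highest and 8 lowest only among members past the threshold whose groups did not overlap. In those genes a gap between the groups was therefore set by the choice and is no separate result. Zfp964 (ENSMUSG00000091764, chr8:69654479-69666982 on mm10, 9 fingers, KRAB pattern) had 6.76, 7.85 and 8.93 CPM in the HFCS libraries, against 2.29, 2.86 and 2.47 CPM in the WT libraries. The lowest HFCS library had more than any WT library, and the log2 fold change was 1.63 ± 0.19 (SE, n = 3 each, edgeR adjusted p = 8.7e-05). Zfp963, from the same array (chr8:69741639-69749970, 7 fingers, KRAB pattern), had 2.82, 2.16 and 2.53 CPM in the HFCS libraries, against 0.694, 1.39 and 1.06 CPM in the WT libraries. These groups too did not overlap (log2 fold change 1.25 ± 0.32, edgeR adjusted p = 0.00936), but 39.4% of the 50-base words of Zfp963 also occur in Gm20422, so its counts are uncertain. Zfp568, which in mice represses a placental transcript of Igf2, had 31.1, 31.8 and 32.3 CPM in the HFCS libraries, against 12.9, 13.7 and 16.3 CPM in the WT libraries. The HFCS libraries were nearly level and all above the WT libraries (log2 fold change 1.15 ± 0.11, edgeR adjusted p = 2.52e-05).

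Zfp14 lies beside Zfp568 on chromosome 7 and had 1.26, 1.77 and 1.58 CPM in the HFCS libraries, against 0.624, 0.734 and 0.282 CPM in the WT libraries, a low level at which the groups did not overlap (edgeR adjusted p = 0.0122). Without HFCS replicate 2 its adjusted p was 0.0507 in edgeR. Zfp503, a member of the NET family of corepressors with no match to the C2H2 pattern, had 20.7, 17.8 and 22.9 CPM in the HFCS libraries, against 10.2, 8.15 and 7.76 CPM in the WT libraries. Every HFCS library lay far above the WT libraries (log2 fold change 1.23 ± 0.15, edgeR adjusted p = 9.6e-05). On chromosome 17, Zfp983 (KRAB pattern, 10 fingers) averaged 13 ± 0.942 CPM in HFCS libraries and 5.32 ± 0.832 CPM in WT libraries (SD, n = 3 each), and Zfp945 (18 fingers) averaged 17.4 ± 1.78 CPM in HFCS libraries and 7.84 ± 0.253 CPM in WT libraries. Both passed, with log2 fold changes of 1.28 ± 0.16 and 1.15 ± 0.13 (edgeR adjusted p = 0.000103 and 6.07e-05). Zfp213 averaged 1.75 ± 0.217 CPM in HFCS libraries and 0.645 ± 0.304 CPM in WT libraries, but it shares 52.3% of its words with Gm26695, so its log2 fold change of 1.44 is uncertain.

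**Figure D2:**
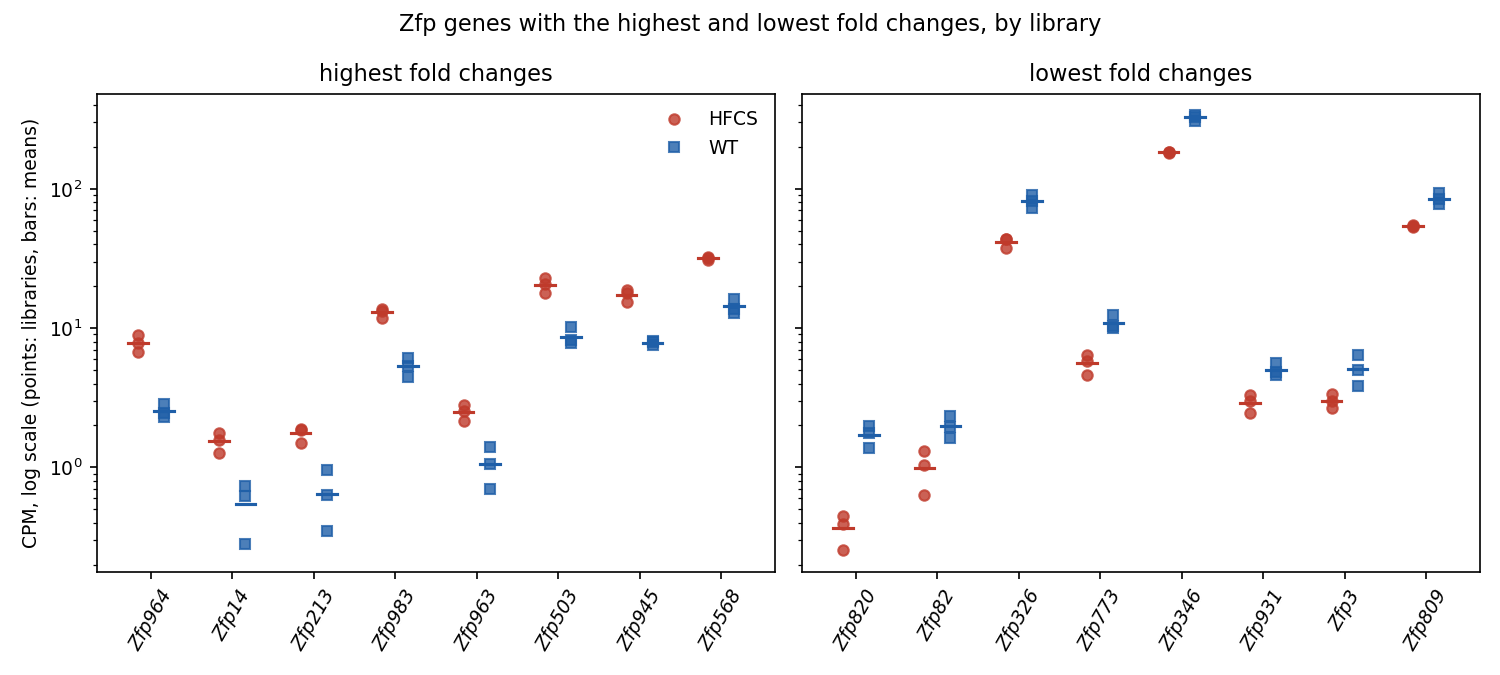
Level of the 8 named Zfp genes with the highest and the 8 with the lowest log2 fold changes in each library (CPM on a log axis), with HFCS libraries left of WT libraries and a bar for the mean. Only members past the threshold whose groups did not overlap could be chosen, so the gap between groups in these 16 genes was set by the choice.

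Zfp820 was the only member to pass the threshold with a fall of at least 2-fold. This KRAB gene with 12 fingers (chr17:21816885-21845772) had 0.446, 0.392 and 0.253 CPM in the HFCS libraries, against 1.39, 1.76 and 1.98 CPM in the WT libraries. It is a low gene, and its lowest WT library still lay well above its highest HFCS library. Its log2 fold change was -2.22 ± 0.39 (edgeR adjusted p = 0.00109).

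The next falls were in genes of different roles. Zfp326, whose human counterpart is part of a complex that couples transcript elongation to splicing, had 37.9, 44 and 43.5 CPM in the HFCS libraries, against 73, 89.7 and 82.4 CPM in the WT libraries. Zfp346, which binds double-stranded RNA, had 184, 181 and 183 CPM in the HFCS libraries, against 338, 330 and 309 CPM in the WT libraries. In both, every HFCS library lay below every WT library, with log2 fold changes of -0.97 ± 0.10 and -0.83 ± 0.06 (edgeR adjusted p = 2.76e-05 and 4.32e-06). Zfp809, the KRAB protein that recognises the proline tRNA primer binding site of murine leukaemia viruses and silences them in embryonic stem cells, had 53.8, 53.2 and 54.8 CPM in the HFCS libraries, against 77.3, 93.2 and 84.7 CPM in the WT libraries. Its HFCS libraries were nearly level and all under the WT libraries (log2 fold change -0.66 ± 0.08, edgeR adjusted p = 0.000116).

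Zfp773 averaged 5.61 ± 0.909 CPM in HFCS libraries and 10.9 ± 1.26 CPM in WT libraries (SD, n = 3 each, edgeR adjusted p = 0.00104). The remaining falls named were less firm. Zfp82 (log2 fold change -0.99 ± 0.35, edgeR adjusted p = 0.0398) lost its call under 10 of the alternatives, where adjusted p was 0.051 to 0.147, and shares 32.7% of its words with Gm26920. Zfp931 (log2 fold change -0.77) shares 23.3% with Gm14399 and lost its call in 2 alternatives, with edgeR adjusted p of 0.231 after removal of the GC trend. Zfp3 (log2 fold change -0.76) lost its call in 4, with adjusted p of 0.0503 in DESeq2 and up to 0.084 in edgeR. Zfp326, Zfp346 and Zfp809 each overlap another listed gene, and for Zfp346 that gene, Gm46415, lies on the opposite strand, so that without a stated strand setting their reads cannot be told apart.

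Zfp genes were scarcer than most genes tested. Per kb of exon, the members had a median of 3.28 CPM over all libraries, against 6.83 CPM for all genes tested, with a range of 0.114 in Zfp532 to 60.9 in Zfp346. The 6 most abundant members per kb were Zfp346, Zfp445, Zfp106, Zfp598, Zfp207 and Zfp692. Zfp346 averaged 43.8 ± 0.39 CPM per kb in HFCS libraries and 78.0 ± 3.57 in WT libraries (SD, n = 3 each), so it stood first in both groups. Zfp598, at 40.3 ± 1.33 CPM per kb in HFCS libraries and 25.9 ± 2.14 in WT libraries, stood next to it in HFCS libraries, where Zfp106 at 39.5 ± 1.14 differed from it by less than their spread. Zfp445, at 37.2 ± 1.49 CPM per kb in HFCS and 38.0 ± 2.24 in WT libraries, and Zfp207, at 28.3 ± 2.02 in HFCS and 37.1 ± 4.60 in WT libraries, differed by less than their spread in WT libraries. Zfp692 fell by 0.30 on the log2 scale (edgeR adjusted p = 0.0261), a call lost in 5 alternatives with adjusted p up to 0.122.

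**Figure D3:**
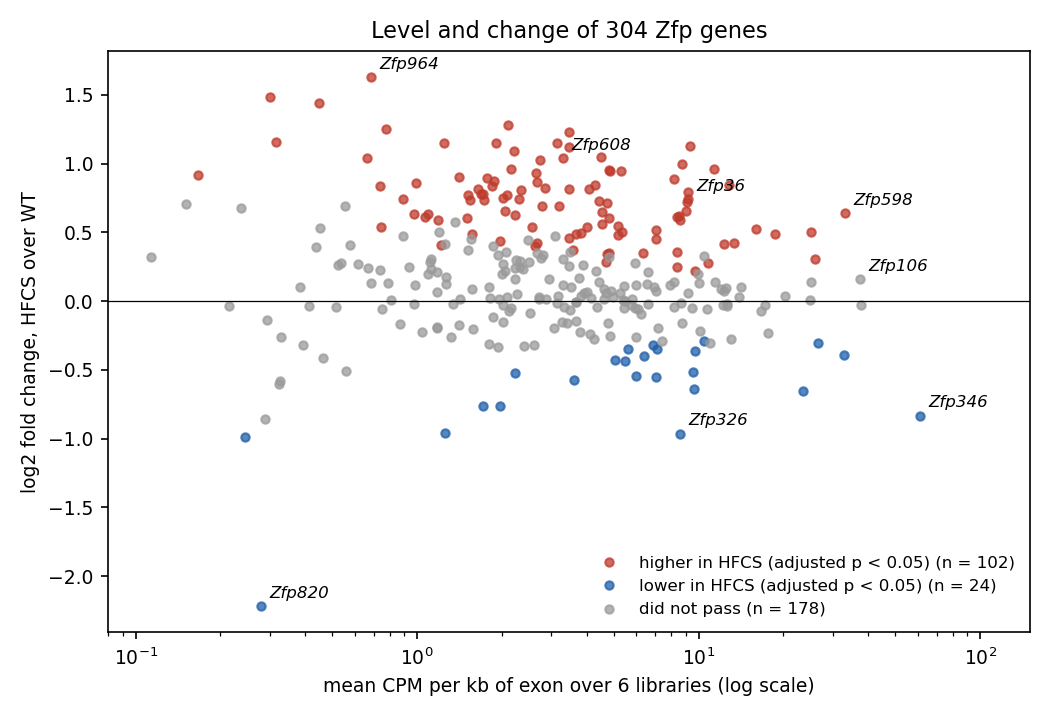
Mean level of each Zfp member over all libraries (CPM per kb of exon, log axis) against its log2 fold change (HFCS over WT), coloured by whether it was higher, lower or did not pass an adjusted p of 0.05. The single member beyond a 2-fold fall is Zfp820, and the member with the highest level per kb, Zfp346, is among the lower ones.

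Among 11 members known for acting on RNA, 4 (36.4%) were higher in HFCS libraries, 3 (27.3%) were lower and 4 did not pass, against 22.4% higher and 22.5% lower of all genes tested. Zfp36, the mRNA decay factor, had 39.4, 43.2 and 37 CPM in the HFCS libraries, against 28.4, 20.1 and 23 CPM in the WT libraries. All HFCS libraries lay above the WT libraries, with a log2 fold change of 0.74 ± 0.13 (edgeR adjusted p = 0.000918), though Gm44710 overlaps it on the opposite strand. Zfp598, whose human counterpart ubiquitinates the small subunit of collided ribosomes, had 162, 157 and 152 CPM in the HFCS libraries, against 110, 93.7 and 99.2 CPM in the WT libraries. It rose in every HFCS library relative to every WT library (log2 fold change 0.64 ± 0.07, edgeR adjusted p = 7.98e-05). Zfp830, needed in the early mouse embryo, averaged 18.5 ± 2.67 CPM in HFCS libraries and 10.7 ± 1.34 CPM in WT libraries, and Zfp385a, an RNA-binding protein that also acts with p53, averaged 47.4 ± 0.798 CPM in HFCS libraries and 32.9 ± 7.35 CPM in WT libraries (edgeR adjusted p = 0.00141 and 0.00921).

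Beside Zfp326 and Zfp346, Zfp207 (BuGZ), a spindle protein that binds Bub3, was the third RNA-related member that fell. Zfp207 had 180, 181 and 204 CPM in the HFCS libraries, against 212, 268 and 261 CPM in the WT libraries. Its groups did not overlap (log2 fold change -0.39 ± 0.09, edgeR adjusted p = 0.00647), but after removal of the GC trend its adjusted p was 0.0566. The log2 fold changes of Zfp593, Zfp106, Zfp622 and Zfp638 were 0.39 ± 0.42, 0.16 ± 0.07, 0.10 ± 0.11 and -0.05 ± 0.09 (SE), and none passed. For Zfp106, an RNA-binding protein whose loss gives motor neuron disease in mice, the HFCS libraries nevertheless lay above the WT libraries, at 412 ± 11.9 CPM in HFCS libraries and 369 ± 24.1 CPM in WT libraries (edgeR adjusted p = 0.0807).

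Of 22 relatives and decay partners of Zfp36, 5 (22.7%) were higher in HFCS libraries and 6 (27.3%) lower, near the 22.4% and 22.5% of all genes tested, with a median log2 fold change of 0.017. Zfp36l1, a relative that also binds AU-rich elements, averaged 22.4 ± 2.94 CPM in HFCS and 30.8 ± 4.58 CPM in WT libraries, a log2 fold change of -0.46 ± 0.14 (edgeR adjusted p = 0.0185). Zfp36l2, at 306 ± 14.7 CPM in HFCS and 295 ± 38.9 CPM in WT libraries, did not pass (edgeR adjusted p = 0.655). The poly(A)-binding protein gene Pabpc1 and the deadenylase gene Cnot8 fell by 0.78 and 0.89 on the log2 scale, while the decapping factor genes Edc3 and Dcp1a rose by 0.59 and 0.57 (edgeR adjusted p = 1.36e-05, 1.66e-05, 5.45e-05 and 0.00051). Without HFCS replicate 1, 2 of the 22 were lower, as were 2489 of the 14825 genes tested in that fit.

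**Figure D4:**
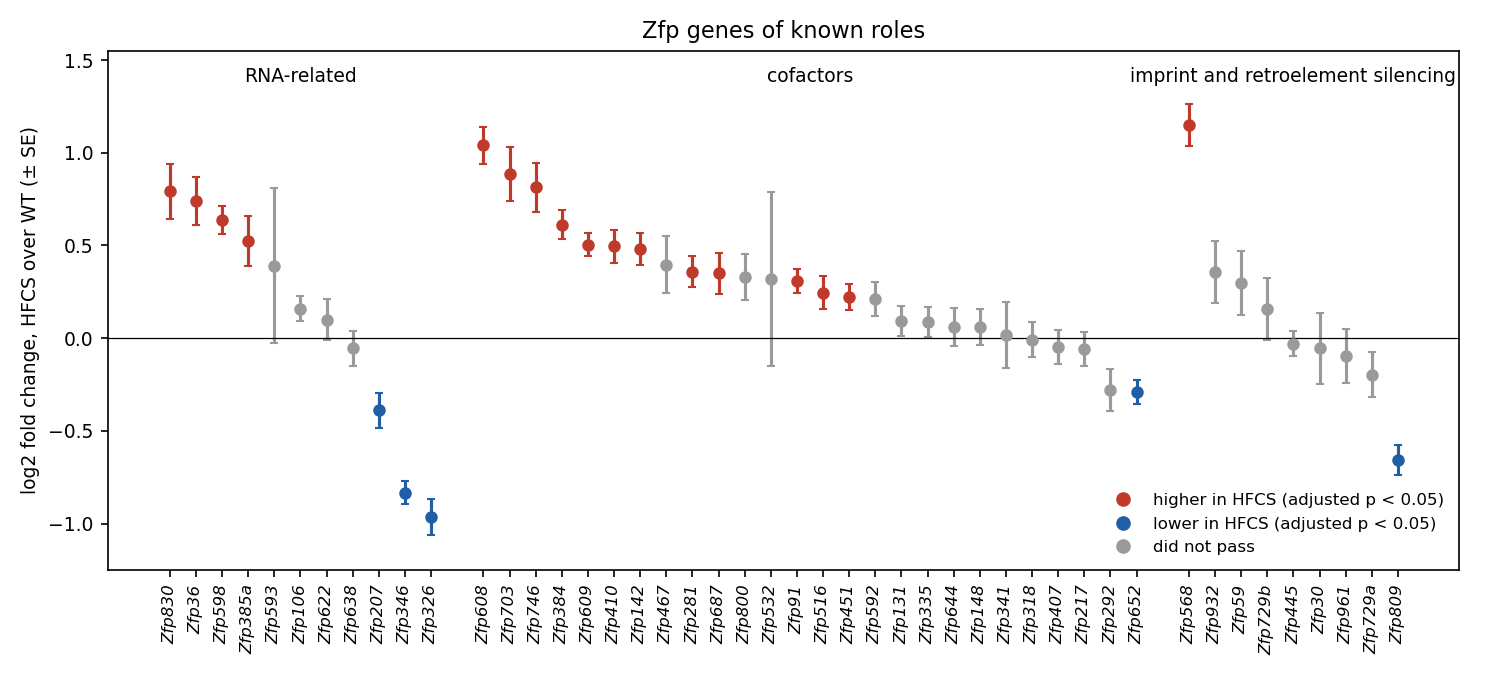
Log2 fold change (HFCS over WT) with its SE for the members known for acting on RNA, for chromatin and transcription, and for imprint and retroelement silencing, coloured by whether each passed an adjusted p of 0.05. Log2 fold change is on the vertical axis, with genes along the horizontal axis by role. Of the cofactors 12 are coloured as higher and 1, Zfp652, as lower, while 7 of the 9 silencing genes did not pass.

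Of 28 listed chromatin or transcription cofactors, 26 were members, and among these 12 (46.2%) were higher in HFCS libraries, 1 (3.85%) was lower and 13 did not pass, against 22.4% higher and 22.5% lower of all genes tested. The median log2 fold change was 0.28, against 0.19 over all members. Zfp608 had 38.9, 37.4 and 36.7 CPM in the HFCS libraries, against 19.7, 16.6 and 18.6 CPM in the WT libraries, which set the groups fully apart (log2 fold change 1.04 ± 0.10, edgeR adjusted p = 2.1e-05), though Gm26742 overlaps it on the opposite strand. Its relative Zfp609, which binds the cohesin loader Nipbl, had 241, 248 and 240 CPM in the HFCS libraries, against 170, 166 and 178 CPM in the WT libraries. It moved the same way by a smaller step (log2 fold change 0.50 ± 0.06, edgeR adjusted p = 0.000101).

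Zfp703, the NET family relative of Zfp503, had 35.7, 35.3 and 36.9 CPM in the HFCS libraries, against 24.7, 16.3 and 17.3 CPM in the WT libraries. The HFCS libraries were close together and all above the WT libraries (log2 fold change 0.89 ± 0.14, edgeR adjusted p = 0.000652). Zfp746 (PARIS), a repressor of Ppargc1a and a parkin substrate, had 38.9, 32 and 35.4 CPM in the HFCS libraries, against 23.5, 16.8 and 20.1 CPM in the WT libraries (log2 fold change 0.81 ± 0.13, edgeR adjusted p = 0.000615). Its lowest HFCS library was above its highest WT library. Zfp91, a ubiquitin ligase of the noncanonical NF-kB pathway, averaged 287 ± 8.98 CPM in HFCS libraries and 232 ± 11.6 CPM in WT libraries (SD, n = 3 each), and rose by 0.31 ± 0.07 on the log2 scale (edgeR adjusted p = 0.00308).

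Zfp410, whose main known target in mouse cells is Chd4, averaged 49.7 ± 4.43 CPM in HFCS libraries and 35.3 ± 0.75 CPM in WT libraries (edgeR adjusted p = 0.00124). Chd4 itself averaged 348 ± 7.29 CPM in HFCS and 459 ± 15.6 CPM in WT libraries (log2 fold change -0.40 ± 0.061, edgeR adjusted p = 0.000419). Zfp384, Zfp142 and Zfp281 also rose, by 0.61 ± 0.08, 0.48 ± 0.09 and 0.36 ± 0.08 on the log2 scale (edgeR adjusted p = 0.000137, 0.00126 and 0.00545). Zfp142 held the most finger matches of any member, 36. The rises of Zfp687, Zfp516 and Zfp451, a SUMO ligase, were 0.35, 0.25 and 0.22 and each was lost in at least 3 alternatives, with adjusted p up to 0.104, 0.144 and 0.0876. Zfp652, the lower cofactor, averaged 145 ± 4.18 CPM in HFCS libraries and 177 ± 8.61 CPM in WT libraries (edgeR adjusted p = 0.00451), and adjusted p was 0.122 and 0.214 after removal of the GC and the length trend. Those that did not pass included Zfp800 at a log2 fold change of 0.33 ± 0.12 (edgeR adjusted p = 0.0502) and Zfp292 at -0.28 ± 0.12.

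Of 14 listed genes known for silencing imprinted genes or retroelements, 9 were members, with a median log2 fold change of -0.03. Among these, Zfp568 was higher (11.1%), Zfp809 was lower (11.1%) and 7 did not pass. Of all members 33.6% were higher and 7.89% lower, and of all genes tested 22.4% and 22.5%. Zfp445, which protects imprints in the mouse embryo and in human cells, had 268, 288 and 271 CPM in the HFCS libraries, against 263, 293 and 288 CPM in the WT libraries. The groups overlapped almost fully, and the log2 fold change was -0.03 ± 0.07 (edgeR adjusted p = 0.743). Zfp729a and Zfp729b, neighbouring genes on chromosome 13, had log2 fold changes of -0.20 ± 0.12 and 0.16 ± 0.17, and Zfp932, known for repressing endogenous retroviruses, had 0.36 ± 0.17. None of these 3 passed.

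Rises were found among members with and without a match to a KRAB box pattern. A missing match does not show that the domain is absent. A KRAB box pattern (F-x-D-V, then F, W and L at fixed spacing) was found in the translated coding sequences of 127 members, of which 40 (31.5%) were higher and 7 (5.51%) lower. Of 172 members with C2H2 fingers and no such pattern, 59 (34.3%) were higher and 17 (9.88%) lower. Of all genes tested, 22.4% were higher and 22.5% lower. The median log2 fold change was 0.13 with the pattern and 0.23 without it, and the difference between these groups was not tested. The summed level with the pattern overlapped, at 2316, 2349 and 2477 CPM in HFCS libraries and 2005, 2317 and 2330 CPM in WT libraries. With fingers and no pattern it did not overlap, at 6615, 6645 and 6799 CPM in HFCS libraries and 5994, 6299 and 6299 CPM in WT libraries. Without WT replicate 1, 13 members with the pattern were lower, as were 3690 of the 14663 genes tested in that fit. A looser KRAB pattern, added after seeing the data, matched 155 members, of which 45 (29%) were higher and 9 (5.81%) lower. In 5 members neither the finger pattern nor the first KRAB pattern was found. They were Zfp36, Zfp503 and Zfp703, which rose, and Zfp330 and Zfp839, named after their values were seen, which did not pass. Outside the Zfp names, 170 tested genes with at least 3 C2H2 fingers had 60 (35.3%) higher and 21 (12.4%) lower, with a median log2 fold change of 0.18.

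Of 30 corepressor genes with which KRAB proteins work, 5 (16.7%) were higher in HFCS libraries, 9 (30%) were lower and 16 did not pass, against 22.4% higher and 22.5% lower of all genes tested. Their median log2 fold change was -0.097, and with library size alone 8 were higher and 7 lower. Trim28 averaged 267 ± 16.2 CPM in HFCS and 338 ± 19.2 CPM in WT libraries (log2 fold change -0.34 ± 0.071, edgeR adjusted p = 0.003), and the maintenance methyltransferase gene Dnmt1 averaged 816 ± 21.8 CPM in HFCS and 1127 ± 45.8 CPM in WT libraries (edgeR adjusted p = 0.000163). Its partner gene Uhrf1 and the HP1 genes Cbx3 and Cbx5 were lower too, with log2 fold changes of -0.43, -0.43 and -0.30. The HP1 gene Cbx1 was higher, at 0.61, as was Setdb1, at 128 ± 3.87 CPM in HFCS and 104 ± 6.85 CPM in WT libraries (log2 fold change 0.29 ± 0.071, edgeR adjusted p = 0.00644). Without WT replicate 1, 14 of the 30 were lower, as were 3690 of the 14663 genes tested in that fit.

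By position, 173 members lay in 25 clusters of at least 3 members whose successive starts were at most 500 kb apart, and 131 lay outside. In clusters 65 (37.6%) were higher and 10 (5.78%) lower, and outside 37 (28.2%) were higher and 14 (10.7%) lower, a difference that was not tested. Of all 304 members 33.6% were higher and 7.89% lower, and of all genes tested 22.4% were higher and 22.5% lower. On chromosome 7, a group at chr7:127233061-127885996 held 10 members, of which 9 were higher and none was lower, with a median log2 fold change of 0.60. The 25 other genes tested within those bounds had 7 higher and 5 lower, with a median of 0.086. Of the 10 members there, Zfp747, Zfp768, Zfp689, Zfp764, Zfp771, Zfp553, Zfp688 and Zfp646 had at least 50% GC. Of all members at that GC content, 53.1% were higher and 6.17% lower, and the part of GC content in this group was not tested. Members of a cluster are neighbours and relatives, and they are not replicates of each other.

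Within that group, Zfp768, whose human counterpart binds MIR repeats, had 16.6, 15.4 and 13.7 CPM in the HFCS libraries, against 8.46, 6.75 and 6.85 CPM in the WT libraries. Zfp747 (KRAB pattern) had 7.73, 8.11 and 9.62 CPM in the HFCS libraries, against 4.09, 4.92 and 2.96 CPM in the WT libraries. Neither gene's groups overlapped, and the log2 fold changes were 1.05 ± 0.15 and 1.09 ± 0.20 (edgeR adjusted p = 0.000224 and 0.00149), although Zfp747 shares 34.4% of its words with 9130019O22Rik. Zfp646, with 27 fingers, averaged 79.3 ± 2.96 CPM in HFCS libraries and 58.1 ± 3.05 CPM in WT libraries (log2 fold change 0.45 ± 0.07, edgeR adjusted p = 0.000658). Zfp668, which overlaps Zfp646 on the opposite strand, had 13.4, 16.4 and 16.9 CPM in the HFCS libraries, against 15.1, 15.1 and 15 CPM in the WT libraries and did not pass (edgeR adjusted p = 0.772). Zfp764, Zfp688, Zfp689, Zfp771, Zfp553 and Zfp629 rose by 0.29 to 0.84 on the log2 scale. In this group the members other than Zfp768 and Zfp646 were chosen for naming after their values were seen.

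Some arrays held both rises and falls, to be read beside 33.6% higher and 7.89% lower of all members. Of all genes tested, 22.4% were higher and 22.5% lower. The chromosome 17 array at chr17:21008903-23599487 held 22 members, 18 of them with the KRAB pattern, and had 6 higher and 2 lower. It held both the lowest log2 fold change of all, Zfp820 at -2.22, and high ones, Zfp213 at 1.44, Zfp983 at 1.28 and Zfp945 at 1.15. Most of its members (14) did not pass, and the array's median log2 fold change was 0.11. The chromosome 7 array at chr7:29768552-30169750 held 15 members with 7 higher and 2 lower, and there Zfp14 at 1.49 lies next to Zfp82 at -0.99. In the array at chr8:69209038-69791178, Zfp964 and Zfp963 were higher and Zfp930 was lower. Zfp930 had 24, 26.2 and 25.8 CPM in the HFCS libraries, against 32.5, 41.5 and 37 CPM in the WT libraries, below in every HFCS library (edgeR adjusted p = 0.00212).

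Several other arrays held no member that fell, where 7.89% of all members and 22.5% of all genes tested did. The shares that rose were 33.6% and 22.4%. At chr13:67038596-67755228, 8 of 18 members were higher and 16 of 18 had a log2 fold change above 0, with a median of 0.30 and none beyond 0.78. Zfp748 and Zfp953 led it, at 12 ± 1.02 CPM in HFCS libraries and 7.03 ± 1.18 CPM in WT libraries for Zfp748 and 8.91 ± 1.53 CPM in HFCS libraries and 5.22 ± 0.86 CPM in WT libraries for Zfp953 (edgeR adjusted p = 0.00259 and 0.00701). On chromosome 15, all 3 members at chr15:75616679-75975868 were higher, among them Zfp41 with 26.4, 31.9 and 30.9 CPM in the HFCS libraries, against 15.1, 13.1 and 18.6 CPM in the WT libraries. No WT library of Zfp41 reached its lowest HFCS library (log2 fold change 0.93 ± 0.14, edgeR adjusted p = 0.000385). At chr7:43296197-43593235, Zfp658 and Zfp719 rose by 1.15 ± 0.19 and 0.96 ± 0.19 while Zfp715 stood at 0.00 on the log2 scale. The 3 arrays with no member past the threshold in either direction, on chromosomes 5, 7 and 16, held 3 members each.

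**Figure D5:**
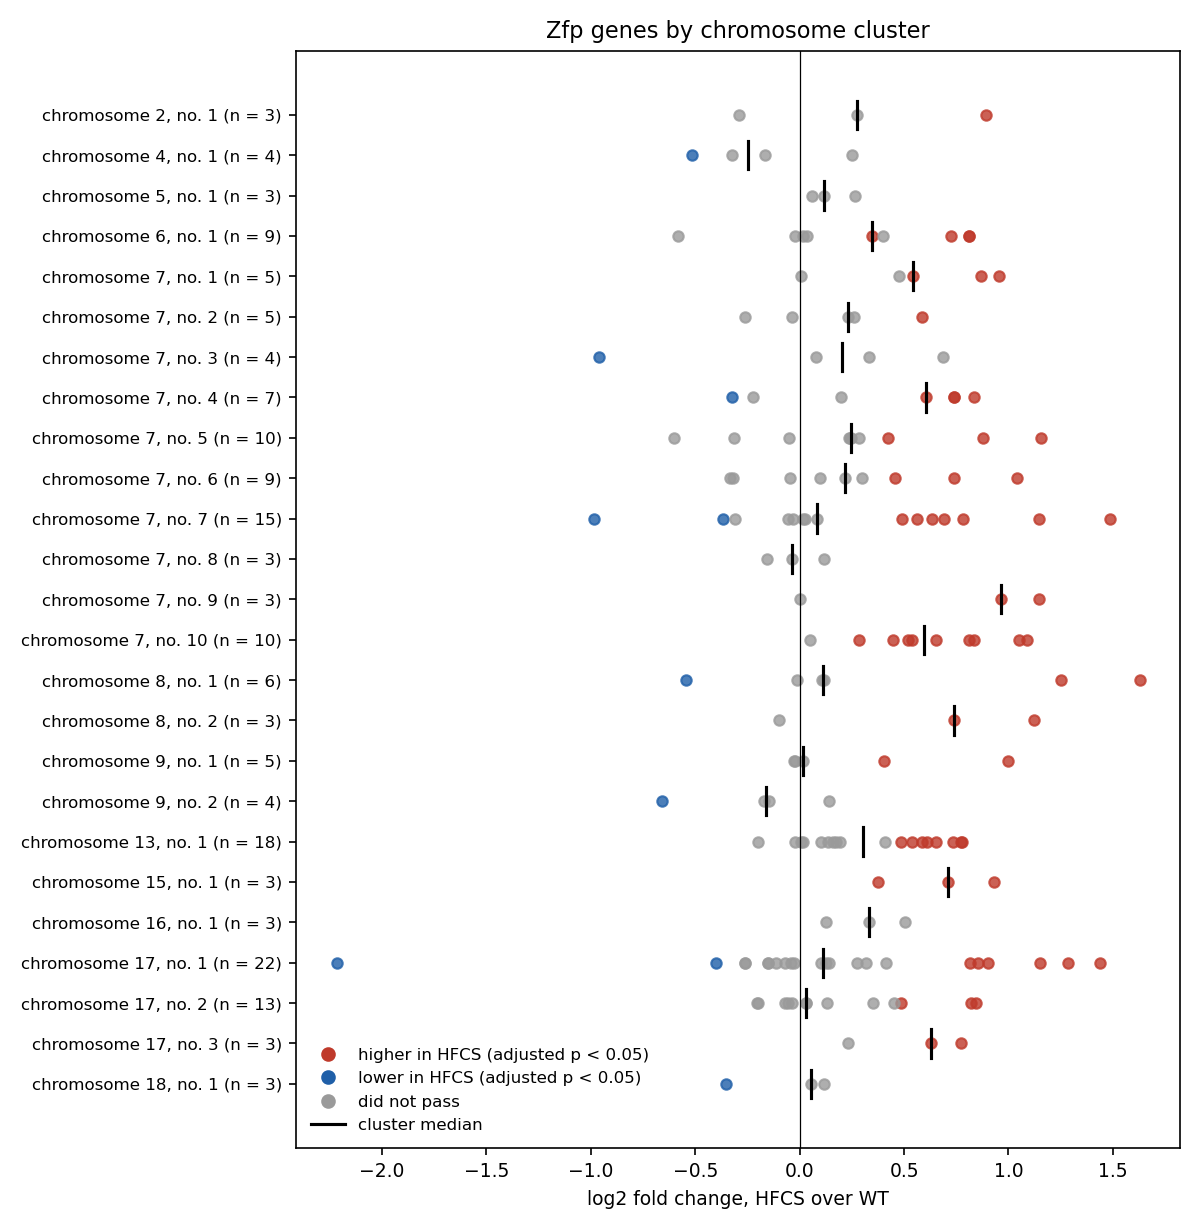
Log2 fold change (HFCS over WT, horizontal axis) of each member in the 25 chromosome clusters of at least 3 Zfp members, 1 line per cluster with a tick at its median, coloured by whether it was higher, lower or did not pass an adjusted p of 0.05. In chromosome 7 group no. 10, 9 of 10 members are higher, while the chromosome 17 array runs from -2.22 to 1.44.

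Shared sequence and overlapping genes touched many members. Of the 304, 99 overlap another listed gene and 41 share at least 20% of their 50-base words with another gene. In the 177 members with neither, 67 (37.9%) were higher and 15 (8.47%) lower, with a median log2 fold change of 0.24. Of all genes tested, 22.4% were higher and 22.5% lower.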

How the data were processed

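RNA had been sequenced from 6 libraries of RAW264.7 cells, 3 labelled HFCS and 3 labelled WT, with RNA extracted with Trizol and libraries made by standard Illumina methods, per the labels' protocols. The deposited values are raw counts per gene, whole numbers that the authors had not normalised. The submitters' processing notes name CASAVA, HISAT2 2.0.5, featureCounts 1.5.0-p3 and mm10, with no order. The annotation release, strand setting and filters are not stated anywhere in the labels or the table, so reads of overlapping genes cannot be told apart.

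Symbols came from the identifiers, matched for 24344 of 24379 genes and not for 35. GENCODE M21 placed 23676 genes, 293 of the 304 members among them, at the same coordinates. After filterByExpr (minimum count 10) had removed 10019 genes, 14360 remained and were tested with edgeR 4.0.16 in R 4.3.3 (glmQLFit and glmQLFTest, TMM, no covariate, Benjamini-Hochberg adjustment over all tested genes, threshold 0.05). The fit was also run on simulated data with fewer changed genes than were called here. There 14 of 182 calls (7.69%) were false, and 66% of genes changed 1.5-fold and 76% of those changed 2-fold were recovered. CPM are counts relative to the TMM-scaled library size, and depth was similar in all libraries, with a common biological coefficient of variation of 0.0984. CPM per kb used the union of exons in GENCODE M21. Each SE was derived from the fold change and its F statistic.

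Members and lists were chosen with earlier results of these data known. Named genes were of several kinds. The first was the 8 highest and the 8 lowest log2 fold changes among members past the threshold with at least 1 CPM on average and groups that did not overlap. The others, with no such condition, were the 6 most abundant members per kb, the members with listed roles, in each cluster the 2 with the smallest adjusted p and the 1 with the highest mean CPM, and the 5 genes on either side of the limit of 60 counts. KRAB and finger patterns had been planned on a protein table not used here, and were counted in translated GENCODE M21 coding sequences. The motifs were chosen after results were seen. Alternatives changed the scaling, the tool (DESeq2 1.42.0, limma 3.58.1), the filter, the libraries, the fold limit and the cluster gap. The table gave no gene length, so the length trend was removed with exon length, an alternative added after seeing the data, as were the GC trend, a looser KRAB pattern and the members without overlap or shared words.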

Additional observations from a re-analysis of the deposited data

How the results depend on the processing

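Across every fit with other scalings, tools, filters or libraries, 82 to 126 members were higher and 13 to 34 lower in HFCS libraries. Of all genes, 2626 to 3975 were higher and 2426 to 3690 lower. The median log2 fold change of the members stayed above 0, and was lowest, at 0.14, without WT replicate 1. With library size alone that median was 0.27, 4 members with a KRAB pattern were lower, and 8 corepressor genes and 8 Zfp36 partners were higher, while the median of all genes tested was 0.075. After removal of the GC trend, added after seeing the data, the members' median was 0.31. In that fit 13 members were lower, 3 with a KRAB pattern and 10 with fingers and no such match, as were 3 Zfp36 partners. At a limit of 1.5-fold 9 members were lower, and at 2-fold 17 were higher and 1 was lower. Without members that overlap or share words, added after seeing the data, 67 were higher and 15 lower. Leaving out 1 library at a time, members higher were 82 to 103 and members lower 16 to 34. Of all genes, 2626 to 3860 were higher and 2489 to 3690 lower in those fits. Members lower with a KRAB pattern were 3 to 13, corepressor genes lower 7 to 14, and Zfp36 partners lower 2 to 7. The looser KRAB pattern, also added later, took in 155 members, 45 higher and 9 lower. The number of clusters was 21 with gaps of at most 250 kb and 26 with gaps of at most 1 Mb. Of the 1854 values of named members under alternatives, 62 lost and 49 gained a call and none reversed.

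Correlations of deviations were 0.167, -0.064 and 0.191 between same-numbered libraries of the HFCS and WT groups. Between differently numbered ones they ran from -0.300 to 0.163. The labels state no pairing, and the numbers were not taken as pairs. With the replicate number as a block, 108 members were higher and 33 lower, among 3619 higher and 3533 lower of all genes. At a mean under 50 counts, 7 of 35 members (20%) were higher and 2 (5.71%) lower, against 10% and 19.7% of all genes at that level.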
